A study of Homo sapiens with 12 samples.

Results

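The genes described here encode respiratory complexes II to V of the mitochondrial inner membrane and the electron carrier cytochrome c. They were chosen by annotated gene symbol: SDHA to SDHD, symbols that begin with UQCR, with COX and a digit or with ATP5, and the 2 genes CYC1 and CYCS. The rule matched symbols without a measured value, though members and lists were chosen with earlier results of these data known. It found 61 genes among the 19775 genes with a probe set of their own, and 52 of the 61 passed the filter on low values and were tested beside the 10907 genes tested in all. The cells were HK-2, a human line immortalised from the epithelium of the renal proximal tubule, and they had received either Nnm, a compound known here only by that label and given at a low dose, or its vehicle. Their total RNA was hybridised to Affymetrix arrays. The 12 arrays fell into 4 groups of 3 biological replicates: Nnm 24 h, control 24 h, Nnm 48 h and control 48 h. All groups shared the line, a medium with EGF, hydrocortisone, insulin, transferrin and selenite, and treatment near confluence. The dose is given only as low, and the name Nnm is not expanded in the labels.

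Complex II, succinate dehydrogenase, takes electrons from the citric acid cycle and passes them to ubiquinone. Complex III hands them from ubiquinol to the soluble carrier cytochrome c, and complex IV, cytochrome c oxidase, passes them to oxygen. Complexes III and IV pump protons across the inner membrane, and complex V, the ATP synthase, uses the return flow of protons to turn a ring of c subunits and make ATP. Proximal tubule cells in the kidney depend on this pathway for the ATP that drives their transport. The catalytic core of complex IV is encoded by the mitochondrial genome, while all of complex II and nearly all subunits of complex III and V come from the nucleus.

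Every value below is a log2 expression value deposited by the authors, 1 probe set per gene, and every difference is Nnm minus control of the same time on that log2 scale with limma's standard error (SE). A gene was said to rise or fall where the adjusted p of limma (Benjamini-Hochberg over all 10907 genes) was below 0.05. The number of arrays limits the precision. Of 9 proximal tubule markers listed on the array only DPP4 and CDH6 were above the filter, and AQP1, LRP2, CUBN, GGT1, ANPEP, SLC34A1 and SLC5A2 were not, while 5 of 5 epithelial markers were. Of the markers of other cell types, 0 of 2 for leukocytes, 1 of 4 for endothelium (PECAM1), 1 of 4 for striated muscle (TNNT1) and 3 of 6 for fibroblasts (COL1A1, DCN, LUM) passed the filter. DPP4 rose at both times and CDH6 at 48 h, and the mean level over the 9 tubule markers was 4.75 to 4.948 on Nnm arrays and 4.702 to 4.795 on control arrays at 24 h, and 5.012 to 5.059 on Nnm arrays and 4.721 to 4.798 on control arrays at 48 h. COL1A1 fell at 48 h. The part of these markers in the results was not tested. The 5′ minus 3′ signal of control probe sets is a measure of RNA integrity. For ACTB it was -1.17 to -1.09 on the 4 arrays numbered 2 and -0.86 to -0.74 on the other 8, in Nnm and control groups alike. For GAPDH it was 0.06 to 0.16 on the arrays numbered 2 and 0.03 to 0.16 on the others.

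Most respiratory genes read lower with Nnm, by small amounts: the difference was below 0 in 45 of the 52 tested members at 24 h and in 45 at 48 h. At 24 h 8 of the 52 tested members fell and 0 rose, where 8.85% of all genes tested fell and 10.6% rose. Without adjustment 16 members had a limma p below 0.05, where 36.5% of all genes did, and 15 of the 16 were lower, where 17.5% of all genes were. The median difference of the members was -0.15, against 0.01 over all genes tested. At 48 h 11 members fell and 1 rose, where 5.34% of all genes fell and 8.45% rose, and the median difference was -0.28 against 0.02. For the mean of the changes at both times, which rests on all 12 arrays, 22 members fell and 1 rose, where 16.9% of all genes fell and 20.4% rose. The median of that mean change was -0.21, against 0.02 over all genes. In bulk RNA fewer cells of a type and less of these RNAs per cell cannot be told apart.

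The same-numbered arrays of the groups varied together, and a fit with the replicate number as a block called more members. With the block 19 members fell and 1 rose at 24 h (18.8% and 20% of all genes), and 26 fell and 1 rose at 48 h (13.7% and 18.5% of all genes). In the mean change the block called 32 falls and 1 rise (24.6% and 28% of all genes). The count of falls moved with single arrays, and so did the share over all genes. At 24 h it was 1 without control 24 h replicate 3 (1.38% of all genes) and 16 without Nnm 24 h replicate 2 (13.9%). At 48 h it was 1 without Nnm 48 h replicate 1 (0.752%) and 19 without Nnm 48 h replicate 2 (9.15%). For the mean change the count lay between 16, without Nnm 24 h replicate 1 (13.8%), and 31, without Nnm 48 h replicate 2 (18.4%).

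The single values were also compared for overlap. At 24 h all 3 Nnm values lay below all 3 control values in 19 of the 52 members, where 18.7% of all genes did so. At 48 h this held for 30 members, where 15.8% of all genes did so. In 17 members it held at both times, where 9.73% of all genes did so, and in 1, ATP5MC2, the Nnm values lay above at both times.

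**Figure D1:**
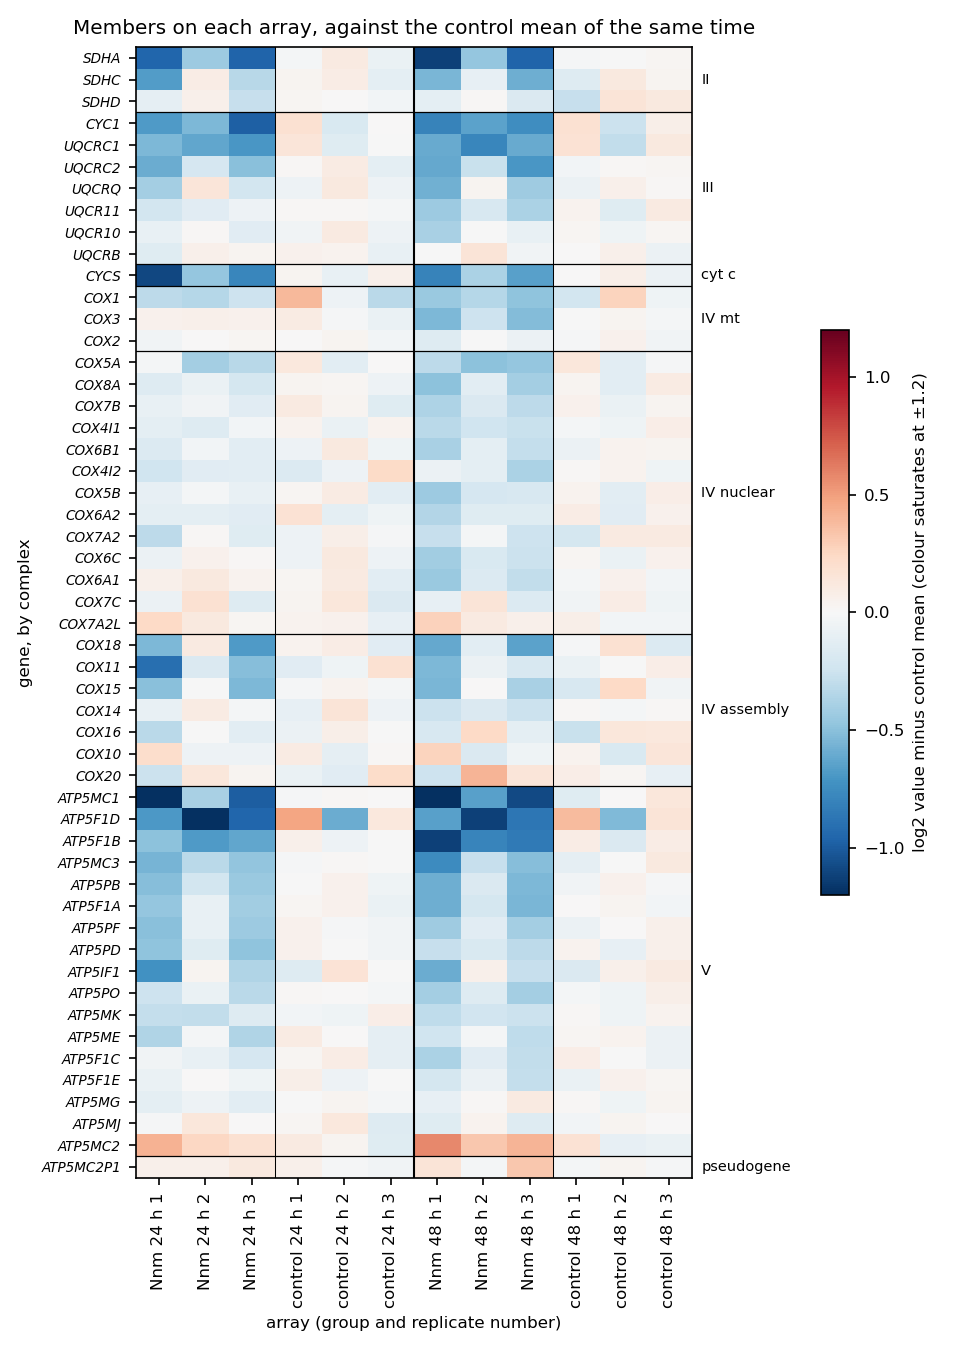
Each row is 1 of the 52 tested members and each column 1 array; colour is the log2 value minus the mean of the 3 control arrays of the same time, blue for lower and red for higher, saturating at 1.2 units either way. SDHA, CYC1, CYCS, ATP5MC1 and ATP5F1B are among the bluest rows, ATP5MC2 is the red row of complex V, and SDHA, CYCS and ATP5MC1 are palest on the Nnm arrays numbered 2.

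Among the replicates, the Nnm arrays numbered 2 lay closest to their controls. The median member differed from the control of its own number by -0.24, -0.07 and -0.15 for replicates 1, 2 and 3 at 24 h, and by -0.41, -0.13 and -0.35 at 48 h. Over all genes tested the same medians lay between -0.01 and 0.03. With both Nnm replicate 2 arrays left out 19 members fell at 24 h, where 15.9% of all genes did, and 26 at 48 h, where 12.5% did. Whether the lower 5′ minus 3′ ACTB signal of the arrays numbered 2 has a part in this was not tested.

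**Figure D2:**
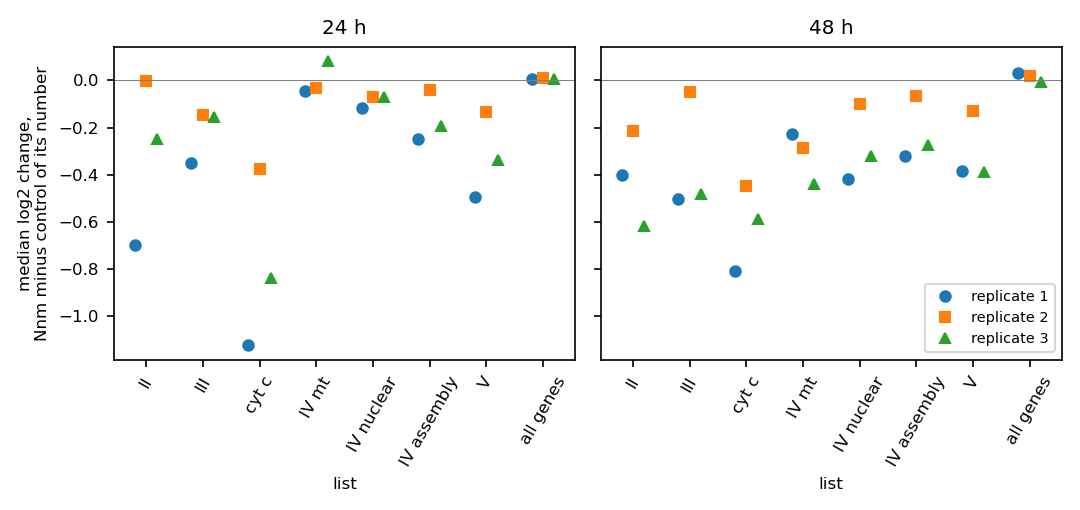
Points give, for each complex and for all genes tested, the median log2 change of an Nnm array against the control array of its replicate number, at 24 h and 48 h. Cytochrome c (1 gene) reaches -1.12 in replicate 1 at 24 h, and the squares of replicate 2 lie nearest to 0 in most nuclear-encoded groups while all genes stay near 0.

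Promoter letters of members that fell, and of the 1 that rose, are shown because several mammalian factors (NRF1, GABP, YY1 and CREB) are known to bind promoters of respiratory genes. RefSeq windows of 300 bases (250 before and 50 after a gene's start, GRCh38.p14) were found for 39 of the 52 tested members, 48 windows in all. Each stretch below ends at the base before the start and is written 5′ to 3′ on the gene's strand. Capitals mark matches, on either strand, to GCGCA and GCGC with 1 base of any kind between them (NRF1), CCGGAAG (GABP and other ETS factors), AAGATGGC (YY1) or TGACGT (the cyclic AMP response element, CRE).
SDHA, chr5:218140-218319, plus strand: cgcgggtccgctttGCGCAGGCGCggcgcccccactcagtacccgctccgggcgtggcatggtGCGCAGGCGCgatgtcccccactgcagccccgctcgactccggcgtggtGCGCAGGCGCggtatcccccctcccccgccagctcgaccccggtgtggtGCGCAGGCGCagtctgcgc
UQCRC1, chr3:48609647-48609736, minus strand: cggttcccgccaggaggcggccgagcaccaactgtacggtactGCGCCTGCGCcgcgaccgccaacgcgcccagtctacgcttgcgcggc
UQCR11, chr19:1605463-1605592, minus strand: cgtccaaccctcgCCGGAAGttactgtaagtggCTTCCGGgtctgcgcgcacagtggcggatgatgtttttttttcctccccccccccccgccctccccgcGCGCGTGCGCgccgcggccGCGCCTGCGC
CYCS, chr7:25125261-25125370, minus strand: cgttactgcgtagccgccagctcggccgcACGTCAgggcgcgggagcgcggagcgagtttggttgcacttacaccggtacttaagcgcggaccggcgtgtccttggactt
ATP5MC1, chr17:48892697-48892786, plus strand: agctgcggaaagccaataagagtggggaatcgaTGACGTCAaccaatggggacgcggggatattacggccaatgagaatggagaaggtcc
ATP5MC2, chr12:53676331-53676420, minus strand: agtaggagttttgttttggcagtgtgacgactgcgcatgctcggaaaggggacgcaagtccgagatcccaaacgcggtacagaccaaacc

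SDHA held 4 copies of the NRF1 letters, which begin 166, 117, 68 and 19 bases before its start and so recur every 49 bases. UQCRC1 held 1 copy and UQCR11 held NRF1 and ETS letters in pairs. CYCS and ATP5MC1 held CRE letters, in ATP5MC1 as the palindrome that matches on both strands, and the ATP5MC2 windows held none of the 4 motifs. NRF1 letters stood in 11 of the 48 member windows (22.9%), against 10.4% of the windows of all genes tested and 5.78% of all 35116 windows. GABP letters stood in 18 windows (37.5%, against 17.4% and 10.3%), YY1 letters in 6 (12.5%, against 4.96% and 2.89%) and CRE letters in 8 (16.7%, against 10.5% and 7.98%). No match of 1 motif overlapped a match of another in the member windows. By gene, 16 members with a window fell in the mean change and 23 did not. NRF1 letters were found in 5 of the 16 and 5 of the 23, GABP letters in 7 and 10, YY1 letters in 4 and 1, and CRE letters in 5 and 2. These are descriptions of letters in a window and say nothing of binding in these cells.

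Complex II was represented by 3 tested genes, of which SDHA fell at both times. SDHB was not found by the symbol rule among the probe sets used. A set shared by SDHA with SDHAP1, SDHAP2 and SDHAP4, not used here, averaged 4.77, near the filter level of 4. It differed by -0.87 at 24 h and -0.20 at 48 h (limma adjusted p = 0.0365 and 0.614 over all kept probe sets). SDHA encodes the flavoprotein that oxidises succinate, and its promoter holds the 4 NRF1 letter copies above. At 24 h it read 9.88, 10.40 and 9.86 on the Nnm arrays, against 10.80, 10.94 and 10.75 on the control arrays. At 48 h the Nnm arrays gave 9.55, 10.21 and 9.71 and the control arrays 10.66, 10.66 and 10.70. All 6 Nnm values lay below all 6 control values, and Nnm replicate 2 was the highest Nnm array at each time. SDHA fell by 0.78 (SE 0.18, adjusted p = 0.0178 by limma) at 24 h and by 0.85 (SE 0.18, adjusted p = 0.0164) at 48 h, folds of 0.581 and 0.555. The call on its mean change held whichever array was left out. The 24 h call was lost without Nnm replicate 1, Nnm replicate 3 or control replicate 3 of that time (adjusted p up to 0.0732), and the 48 h call without Nnm or control replicate 1 or 3 of its time (up to 0.0725). The membrane anchor genes did not pass on the probe sets used: SDHC differed by -0.30 and -0.41 (SE 0.19) and SDHD by -0.11 and -0.09 (SE 0.13) at 24 h and 48 h. With the replicate block that set of SDHC passed at 48 h (adjusted p = 0.0406) and in the mean change (adjusted p = 0.0106). Without the block, further SDHC sets with mean changes of -0.44 and -0.40 passed (limma adjusted p = 0.039 and 0.0445 over all kept probe sets). Those with mean changes of -0.37, -0.25 and -0.04 did not.

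In complex III, on the probe sets used, the tested genes of the large subunits fell and those of the small subunits mostly did not pass. These sets averaged 11.10 to 11.64 for UQCRC1, UQCRC2 and CYC1 and 12.01 to 13.74 for the small subunits. A second set of UQCR11 averaged 6.94 and differed by -0.74 at 24 h (limma adjusted p = 0.0409 over all kept probe sets). Its mean change was -0.61 (0.0115). Further sets of UQCRB did not pass, and one of UQCR10 is given below. Whether level has a part in this was not tested. UQCRFS1, the Rieske protein gene, was not found by the symbol rule among the probe sets used. UQCRH had only a probe set shared with UQCRHL, not used here, which differed by -0.01 at 24 h and -0.14 at 48 h. Of 7 tested genes UQCRC1 and CYC1 fell at both times, UQCRC2 fell at 48 h, and UQCR11 fell in the mean change only. UQCRC1, a core subunit on the matrix side, read 11.57, 11.49 and 11.40 on Nnm arrays, against 12.25, 11.96 and 12.10 on control arrays at 24 h. Nnm arrays at 48 h gave 11.21, 11.03 and 11.21, against 11.99, 11.52 and 11.93 on control arrays. The groups did not overlap at either time. UQCRC1 fell by 0.62 (SE 0.14, adjusted p = 0.0158) and by 0.66 (SE 0.14, adjusted p = 0.0154), folds of 0.651 and 0.632.

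CYC1 encodes cytochrome c1, the haem subunit that reduces cytochrome c. It read 10.90, 11.04 and 10.60 on Nnm arrays at 24 h, against 11.77, 11.40 and 11.58 on control arrays. At 48 h the values were 10.54, 10.70 and 10.60 on Nnm arrays, against 11.53, 11.09 and 11.41 on control arrays. The 3 Nnm values lay below all control values of their time. CYC1 fell by 0.74 (SE 0.15, adjusted p = 0.0131) at 24 h and by 0.73 (SE 0.15, adjusted p = 0.0159) at 48 h, nearly the same size at both times. Its call and that of UQCRC1 on the mean change held whichever array was left out. At 24 h both calls were lost without Nnm replicate 3 or control replicate 3, and that of UQCRC1 also without control replicate 1 (adjusted p up to 0.0552 for CYC1 and 0.0634 for UQCRC1). At 48 h both were lost without Nnm replicate 1, control replicate 1 or control replicate 3, and that of CYC1 also without Nnm replicate 3 (up to 0.0674 for CYC1 and 0.0609 for UQCRC1).

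UQCRC2, the partner core subunit of UQCRC1, read 10.76, 11.15 and 10.85 on Nnm arrays, against 11.37, 11.45 and 11.24 on control arrays at 24 h. After 48 h the Nnm arrays read 10.88, 11.23 and 10.80, against 11.46, 11.51 and 11.52 on the control arrays. Its groups did not overlap at either time, with Nnm replicate 2 nearest to control. It fell by 0.53 at 48 h (SE 0.14, adjusted p = 0.034) and differed by -0.43 at 24 h (adjusted p = 0.0514, or 0.0119 with the replicate block). The 48 h call was kept in 6 of 12 fits that left out 1 array, with an adjusted p of up to 0.117, while the mean-change call was kept in all of them. UQCR11, a small supernumerary subunit, fell by 0.24 in the mean change (SE 0.07, adjusted p = 0.0286), a call kept in 4 of 12 such fits (up to 0.0717), and with the block it also passed at 48 h (adjusted p = 0.0325). Its arrays read 11.90, 11.99 and 12.07 with Nnm, against 12.14, 12.14 and 12.10 in control at 24 h, and 11.70, 11.93 and 11.75 with Nnm, against 12.17, 11.98 and 12.23 in control at 48 h. The other small subunits, UQCRB, UQCRQ and UQCR10, did not pass, and their differences ran between -0.32 and 0.03. With the block UQCRQ passed in the mean change (adjusted p = 0.0283).

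CYCS, the gene of the carrier between complexes III and IV, fell at both times. On Nnm arrays it read 11.87, 12.50 and 12.18 at 24 h, against 12.99, 12.87 and 13.02 on control arrays. At 48 h the Nnm arrays gave 11.97, 12.40 and 12.12 and the control arrays 12.78, 12.84 and 12.71. No Nnm value reached the lowest control value, and Nnm replicate 2 was the highest Nnm array each time. CYCS fell by 0.78 (SE 0.16, adjusted p = 0.0121, fold 0.583) at 24 h and by 0.61 (SE 0.16, adjusted p = 0.0311, fold 0.653) at 48 h. The 24 h call was lost only without control 24 h replicate 3 among the 12 fits that left out 1 array (adjusted p = 0.0555), and the 48 h call was kept in 7 of them (up to 0.117).

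**Figure D3:**
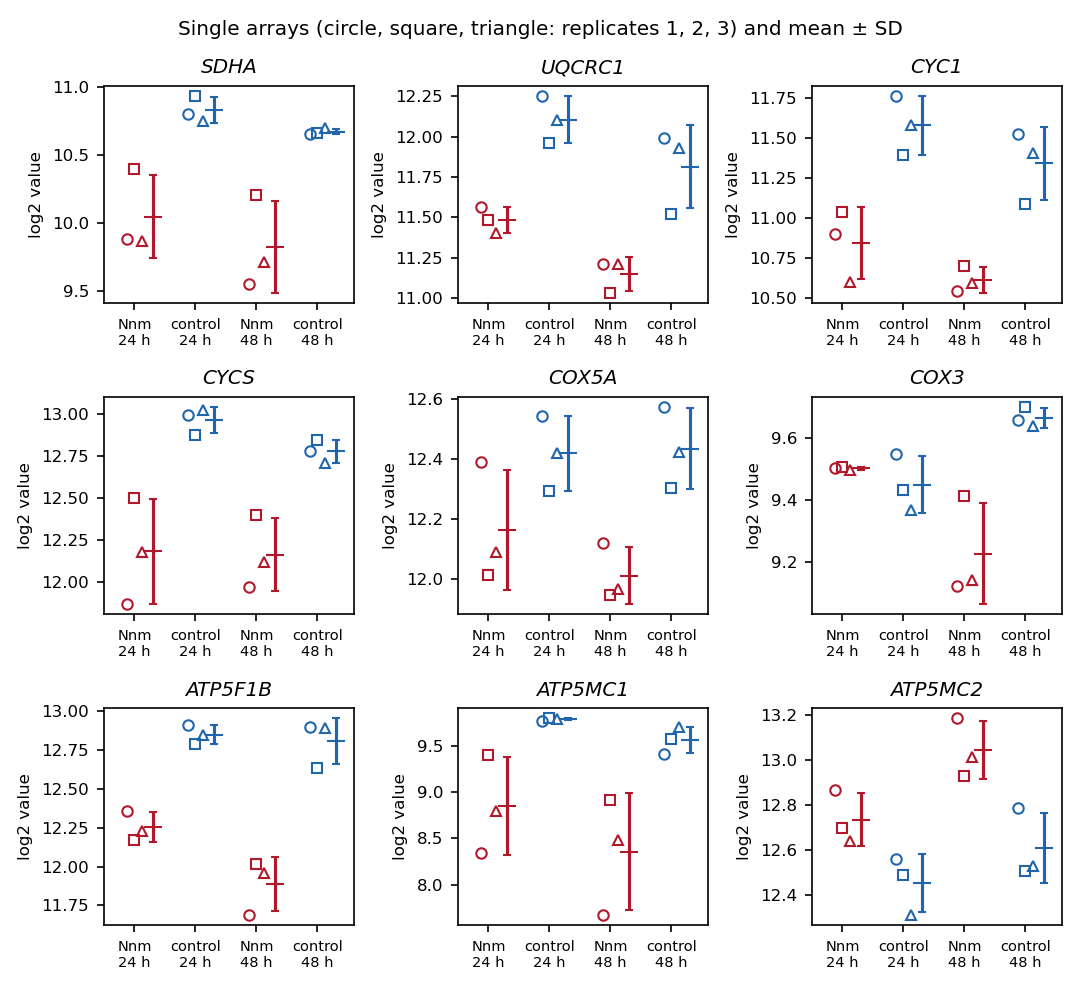
Open symbols are single arrays (circle, square and triangle for replicates 1, 2 and 3), red for Nnm and blue for control, with the mean and SD of each group beside them; the y axis is the deposited log2 value and does not start at 0. SDHA, UQCRC1, CYC1, CYCS, ATP5F1B and ATP5MC1 are lower on Nnm arrays at both times, COX3 at 48 h only, and ATP5MC2 is higher at both times.

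In complex IV 0 of the 16 tested subunit genes passed at 24 h in either direction, and 0 did so at an unadjusted limma p below 0.05, beside the 36.5% of all genes given above. At the adjusted threshold 8.85% of all genes fell and 10.6% rose at 24 h. With the replicate block 1 subunit gene fell at 24 h, where 18.8% of all genes did. At 48 h 1 of 16 fell, COX3, where 5.34% of all genes did. Without adjustment 10 of the 16 had a limma p below 0.05 at 48 h, where 32.4% of all genes did. With the block 8 of 16 fell at 48 h and 8 in the mean change, where 13.7% and 24.6% of all genes fell. Without the block 4 fell in the mean change, where 16.9% of all genes did. Whether complex IV differed from the other complexes was not tested. The 13 nuclear subunit genes had a median difference of -0.10 at 24 h and -0.27 at 48 h. Their 3 Nnm values lay below all 3 control values in 1 of the 13 at 24 h and in 10 at 48 h, beside 18.7% and 15.8% of all genes. The change between times was itself tested as an interaction, and 0 of the 16 passed in limma, with 2 at an unadjusted p below 0.05 (6.4% of all genes) and a smallest adjusted p of 0.696, that of COX3.

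Of the 3 subunits encoded by the mitochondrial genome, only COX3 fell at 48 h and only COX1 fell in the mean change. The probe sets used for COX1 and COX2 averaged 15.31 and 15.59 over the 12 arrays, at percentiles 99.84 and 99.95 of the genes tested. The 1 probe set of COX3 averaged 9.46, at percentile 67.33. What these levels mean for the size of the differences, and how well each set reads its RNA, was not tested. COX3, a core subunit, read 9.50, 9.51 and 9.50 on Nnm arrays at 24 h, against 9.55, 9.43 and 9.37 on control arrays. At 48 h it read 9.12, 9.41 and 9.14 on Nnm arrays, against 9.66, 9.70 and 9.64 on control arrays. The groups overlapped at 24 h and were apart at 48 h, where COX3 fell by 0.44 (SE 0.10, adjusted p = 0.022, fold 0.738). That call was kept in 7 of 12 fits that left out 1 array (adjusted p up to 0.0884). With the block COX3 also passed in the mean change (adjusted p = 0.0321). COX1, the catalytic subunit that reduces oxygen, read 15.19, 15.16 and 15.26 on Nnm arrays, against 15.89, 15.44 and 15.18 on control arrays at 24 h. The 48 h values were 15.03, 15.13 and 14.99 on Nnm arrays, against 15.26, 15.74 and 15.43 on control arrays. The groups overlapped at 24 h through control replicate 3. COX1 fell by 0.36 in the mean change (SE 0.12, adjusted p = 0.0395), a call kept in 3 of 12 such fits (up to 0.0892). COX2 differed by -0.01 and -0.08 (SE 0.09) and did not pass.

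Among nuclear-encoded subunits COX5A, COX8A and COX4I1 fell in the mean change and none passed at a single time. COX5A, a subunit on the matrix side, read 12.39, 12.01 and 12.09 on Nnm arrays, against 12.54, 12.29 and 12.42 on control arrays at 24 h. Nnm arrays at 48 h gave 12.12, 11.95 and 11.97, against 12.57, 12.30 and 12.42 on control arrays. In each pair of the same number the Nnm array was the lower, although the groups overlapped at 24 h. Its mean change was -0.34 (SE 0.09, adjusted p = 0.0147) and was called whichever array was left out. With the block COX5A passed at 24 h (adjusted p = 0.0283) and at 48 h (adjusted p = 0.00598), and COX4I1 and COX8A passed at 48 h (adjusted p = 0.0249 and 0.041). COX8A had a mean change of -0.25 (SE 0.08, adjusted p = 0.0345) and COX4I1 one of -0.19 (SE 0.06, adjusted p = 0.038), and each of these calls was kept in 3 of 12 fits that left out 1 array (up to 0.082 and 0.0914).

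COX8A read 12.43, 12.51 and 12.37 on Nnm arrays, against 12.62, 12.62 and 12.52 on control arrays at 24 h, and 11.997, 12.35 and 12.08 on Nnm arrays, against 12.52, 12.36 and 12.58 on control arrays at 48 h. COX4I1, the common form of the regulatory subunit 4, read 13.39, 13.35 and 13.47 on Nnm arrays, against 13.54, 13.42 and 13.54 on control arrays at 24 h. After 48 h the Nnm arrays read 13.18, 13.27 and 13.24, against 13.48, 13.46 and 13.58 on the control arrays. Both genes had lower Nnm values than any control value at 48 h, and COX8A also at 24 h. The tissue form COX4I2, known for lung, differed by -0.17 and -0.19 (SE 0.12) and did not pass.

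The common form COX6A1 differed by 0.07 at 24 h and -0.30 at 48 h (SE 0.10, adjusted p = 0.0743, or 0.0253 with the block), and the muscle form COX6A2 by -0.13 and -0.21 (SE 0.11). COX6A1 read 13.98, 14.04 and 13.96 on Nnm arrays, against 13.95, 14.03 and 13.79 on control arrays at 24 h. At 48 h it read 13.57, 13.85 and 13.71 on Nnm arrays, against 13.99, 14.06 and 13.98 on control arrays. Its groups overlapped at 24 h and were apart at 48 h. COX6B1 differed by -0.11 and -0.27 (SE 0.10), COX7A2 by -0.15 and -0.18 (SE 0.13) and COX7B by -0.09 and -0.29 (SE 0.10) at 24 h and 48 h, and none of them passed. With the block COX6B1 and COX7B passed at 48 h (adjusted p = 0.0262 and 0.0424) and in the mean change (0.0155 and 0.0375), and COX7A2 in the mean change (0.0429). The muscle form COX7A1 and the testis forms COX6B2, COX7B2 and COX8C were below the filter on these arrays. The other 4 nuclear subunit genes, COX5B, COX6C, COX7C and COX7A2L, ran between -0.28 and 0.15 and did not pass, though COX6C did at 48 h with the block (adjusted p = 0.0381).

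Of 7 tested COX-named assembly factors 0 passed at 24 h or 48 h in limma, with 1 and 2 below an unadjusted p of 0.05 (36.5% and 32.4% of all genes), and COX11 and COX18 fell in the mean change. COX11, which delivers copper to COX1, read 11.22, 11.95 and 11.62 on Nnm arrays, against 11.99, 12.08 and 12.31 on control arrays at 24 h. The 48 h values were 11.50, 11.97 and 11.85 on Nnm arrays, against 11.97, 12.04 and 12.13 on control arrays. COX18, which inserts COX2 into the membrane, read 8.58, 9.22 and 8.43 on Nnm arrays, against 9.16, 9.21 and 8.98 on control arrays at 24 h, and 8.63, 9.11 and 8.60 on Nnm arrays, against 9.23, 9.42 and 9.08 on control arrays at 48 h. In both genes Nnm replicate 2 lay within or next to the control range, and replicates 1 and 3 lay below it. The mean changes were -0.40 (SE 0.13, adjusted p = 0.034) for COX11 and -0.41 (SE 0.15, adjusted p = 0.047) for COX18, calls kept in 3 and 2 of the 12 fits that left out 1 array (up to 0.0812 and 0.108). With the block COX11, COX15 and COX18 passed at 24 h (adjusted p = 0.0145, 0.0351 and 0.0388), COX18 at 48 h (0.0211) and COX15 in the mean change (0.00715). Without it COX10, COX14, COX15, COX16 and COX20 did not pass, and COX17 and COX19 were below the filter on their own probe sets. A set shared by COX17 and POPDC2, not used here, averaged 10.65 and differed by 0.38 at 24 h and 0.22 at 48 h. Its mean change was 0.30 (limma adjusted p = 0.0265 over all kept probe sets).

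Complex V held the only rise among the tested members. ATP6, a further complex V subunit gene among the genes tested, does not match the symbol rule and is not described here. Of 17 tested genes, the inhibitor ATP5IF1 included, 4 fell at 24 h, 5 fell and 1 rose at 48 h, and 10 fell and 1 rose in the mean change. Over all genes 8.85% fell and 10.6% rose at 24 h, 5.34% and 8.45% at 48 h, and 16.9% and 20.4% in the mean change. With the replicate block 10 fell and 1 rose at 24 h, 10 fell and 1 rose at 48 h, and 13 fell and 1 rose in the mean change. The block called 18.8% of all genes lower and 20% higher at 24 h, 13.7% and 18.5% at 48 h, and 24.6% and 28% in the mean change. The median difference of complex V was -0.32 at 24 h and -0.27 at 48 h. ATP5F1B, the beta subunit that holds the catalytic sites, read 12.36, 12.17 and 12.23 on Nnm arrays, against 12.91, 12.79 and 12.85 on control arrays at 24 h. Nnm arrays at 48 h gave 11.69, 12.02 and 11.96, against 12.90, 12.64 and 12.89 on control arrays. The Nnm and control values were well apart at both times, and replicate 2 did not stand out at 24 h. ATP5F1B fell by 0.60 (SE 0.12, adjusted p = 0.0112, fold 0.661) and by 0.92 (SE 0.12, adjusted p = 0.00335, fold 0.528). Of the members described, it was the only one whose calls at 24 h and at 48 h were both kept whichever array was left out (adjusted p up to 0.0487 and 0.0211). The interaction between its changes did not pass (adjusted p = 0.801).

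The alpha and delta subunit genes of F1 fell as well. ATP5F1A, the alpha subunit, read 13.69, 14.07 and 13.74 on Nnm arrays, against 14.18, 14.21 and 14.08 on control arrays at 24 h. After 48 h the Nnm arrays read 13.65, 14.03 and 13.69, against 14.24, 14.27 and 14.20 on the control arrays. The groups were apart at both times, with Nnm replicate 2 nearest to control. ATP5F1A fell by 0.45 at 48 h (SE 0.13, adjusted p = 0.0452), a call kept in 3 of 12 fits that left out 1 array (up to 0.157), and by 0.39 in the mean change (adjusted p = 0.0091), kept in all of them. With the block it also passed at 24 h (adjusted p = 0.0283).

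ATP5F1D, the delta subunit of the central stalk, read 8.87, 8.23 and 8.61 on Nnm arrays, against 10.03, 8.96 and 9.68 on control arrays at 24 h. At 48 h it read 8.73, 8.26 and 8.52 on Nnm arrays, against 9.77, 8.85 and 9.53 on control arrays. Replicate 2 was the lowest array of every group, so the order of the replicates was the same in all 4. ATP5F1D fell by 0.99 at 24 h (SE 0.30, adjusted p = 0.0435, fold 0.504) and differed by -0.88 at 48 h (adjusted p = 0.0734, or 0.00282 with the block). The 24 h call was kept in 5 of 12 fits that left out 1 array (up to 0.137), and the call on the mean change of -0.93 in all of them. ATP5F1C and ATP5F1E did not pass, though with the block ATP5F1C did at 48 h (adjusted p = 0.0408) and in the mean change (adjusted p = 0.0267).

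The genes of the c subunit moved in opposite directions. ATP5MC1, ATP5MC2 and ATP5MC3 encode the same mature c subunit with different import sequences, and the ring of c subunits is the rotor of the enzyme. ATP5MC1 read 8.35, 9.41 and 8.80 on Nnm arrays, against 9.78, 9.80 and 9.80 on control arrays at 24 h. The 48 h values were 7.67, 8.92 and 8.49 on Nnm arrays, against 9.42, 9.58 and 9.71 on control arrays. Control arrays were close together, while Nnm arrays were spread over more than a unit with replicate 1 lowest and replicate 2 highest. ATP5MC1 fell by 1.21 at 48 h (SE 0.31, adjusted p = 0.029, fold 0.433), and at 24 h differed by -0.94 (adjusted p = 0.0532, or 0.0124 with the block). The 48 h call was kept in 7 of 12 fits that left out 1 array (up to 0.0957), and the call on its mean change of -1.07 in all of them.

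ATP5MC3 read 12.94, 13.18 and 13.02 on Nnm arrays, against 13.48, 13.51 and 13.50 on control arrays at 24 h. Nnm arrays at 48 h gave 12.59, 13.07 and 12.84, against 13.23, 13.34 and 13.46 on control arrays. No values overlapped at either time. ATP5MC3 fell by 0.45 (SE 0.13, adjusted p = 0.0349) and by 0.51 (SE 0.13, adjusted p = 0.0286), calls kept in 6 and 7 of 12 fits that left out 1 array (up to 0.117 and 0.104).

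ATP5MC2 was the 1 tested member that rose. It read 12.87, 12.70 and 12.64 on Nnm arrays, against 12.56, 12.49 and 12.31 on control arrays at 24 h. After 48 h the Nnm arrays read 13.19, 12.93 and 13.01, against 12.78, 12.51 and 12.53 on the control arrays. The Nnm values lay above the control values at both times, as did 21.1% of all genes at 24 h and 20.3% at 48 h. ATP5MC2 rose by 0.44 at 48 h (SE 0.12, adjusted p = 0.0404, fold 1.35) and differed by 0.28 at 24 h (adjusted p = 0.121, or 0.0232 with the block). The 48 h call was kept in 4 of 12 fits that left out 1 array (up to 0.143), and the call on its mean change of 0.36 (adjusted p = 0.00932) in all of them. Its pseudogene ATP5MC2P1 differed by 0.08 and 0.15 and did not pass, and RNAs of near-identical copies may share a probe.

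In the peripheral stalk, which holds F1 still against the rotor, all 4 tested genes fell in the mean change. ATP5PB read 13.02, 13.32 and 13.09 on Nnm arrays, against 13.53, 13.59 and 13.49 on control arrays at 24 h. At 48 h it read 12.89, 13.31 and 12.94 on Nnm arrays, against 13.44, 13.54 and 13.47 on control arrays. The groups were apart at both times and Nnm replicate 2 was nearest to control. ATP5PB fell by 0.43 at 48 h (SE 0.13, adjusted p = 0.0461), a call kept in 3 of 12 fits that left out 1 array (up to 0.162), and by 0.41 in the mean change (adjusted p = 0.00586), kept in all of them. The mean changes of ATP5PD, ATP5PF and ATP5PO were -0.31, -0.33 and -0.27, and ATP5PD also fell at 24 h, by 0.37 (adjusted p = 0.0432). Of the small membrane genes ATP5MK fell in the mean change by 0.26 (adjusted p = 0.0105), while ATP5ME, ATP5MG and ATP5MJ did not pass. ATP5MF was below the filter on its own probe set. A set shared with ARMC2-AS1, not used here, averaged 12.77 and differed by -0.27 at 24 h and -0.39 at 48 h. Its mean change was -0.33 (limma adjusted p = 0.00926 over all kept probe sets). ATP5IF1, the inhibitor that blocks ATP hydrolysis by the enzyme, differed by -0.35 and -0.27 (SE 0.21) and did not pass. With the block ATP5PB, ATP5PF, ATP5MK and ATP5IF1 passed at 24 h (adjusted p = 0.0113, 0.033, 0.0302 and 0.0383), ATP5PF, ATP5PO and ATP5MK at 48 h (0.0463, 0.0309 and 0.0265), and ATP5ME and ATP5IF1 in the mean change (0.0221 and 0.0108).

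No member passed between the times. Between Nnm 48 h and Nnm 24 h 0 of 52 passed in limma (0.055% of all genes fell and 0.0642% rose), with 10 below an unadjusted p of 0.05 (10.8% of all genes). Between control 48 h and control 24 h 0 passed (0.0458% fell and 0.0825% rose), with 1 below an unadjusted p of 0.05 (15.7% of all genes). The replicate block called 1 rise, that of COX7A2L, and 0 falls among the members in each of these comparisons. Over all genes the block called 1.26% higher and 1.04% lower between the Nnm groups, and 3.87% higher and 4.6% lower between the control groups. The change at 48 h differed from that at 24 h in 0 of 52 members (0% of all genes in either direction), with 2 below an unadjusted p of 0.05 (6.4% of all genes).

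**Figure D4:**
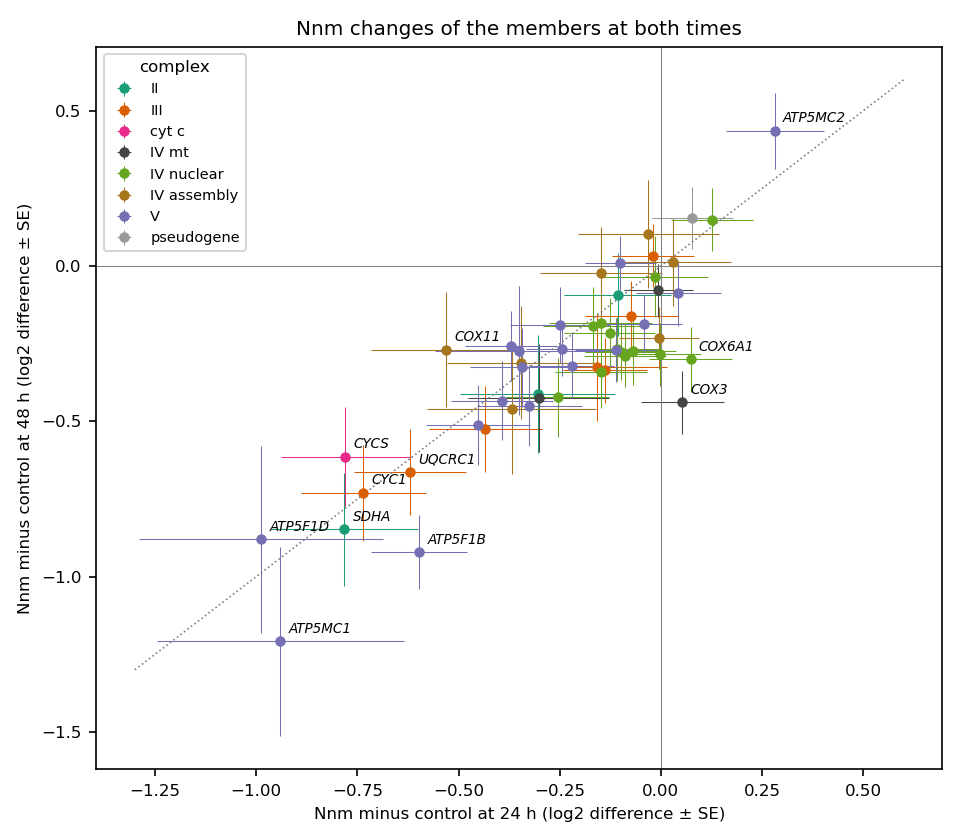
Each point is a tested member, placed by its Nnm difference at 24 h (x) and 48 h (y) in log2 units with SE bars, coloured by complex; the dotted line marks equal change. Most points lie below 0 on both axes, ATP5MC1 lies lowest at -1.21 on the y axis, ATP5MC2 lies highest, and COX3 and COX6A1 lie right of 0 on the x axis and below 0 on the y axis.

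Several genes had further probe sets on the array, and these did not always move by the same amount. Of 23 members with more than 1 kept probe set, all sets had the same direction in 18 at 24 h and in 19 at 48 h. The exceptions were COX15, COX2, COX20, COX5B and COX7C at 24 h and ATP5MG, COX11, COX7C and UQCRB at 48 h. In the following genes, chosen after their values were seen, another probe set differed more than the one used. A second set of COX7B averaged 4.79 on Nnm arrays and 7.61 on control arrays at 24 h. Its differences were -2.83 at 24 h and -3.13 at 48 h, against -0.09 and -0.29 for the set used. A further set of ATP5MC3 differed by -1.19 and -1.32, against -0.45 and -0.51 for the set used. Of UQCR10 and CYCS, further sets averaged below the filter level of 4 on Nnm arrays, at 3.88 against 6.73 on control arrays at 48 h for UQCR10 and at 2.60 against 4.19 at 24 h for CYCS, and no difference is given for them. A second set of COX20 rose by 0.79 at 48 h (SE 0.18, adjusted p = 0.0263 over all kept probe sets), while the set used differed by 0.10. What each of these sets measures was not tested.

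Assembly factors outside the symbol rule were read from a list of 38 genes. NDUFA4, a complex IV subunit on that list, was not found under that symbol. Its newer symbol COXFA4 is among the genes tested but was not read here. Of 36 tested genes 6 fell and 1 rose at 24 h, 4 fell and 1 rose at 48 h, and 13 fell and 2 rose in the mean change. Over all genes 8.85% fell and 10.6% rose at 24 h, 5.34% and 8.45% at 48 h, and 16.9% and 20.4% in the mean change. With the replicate block 14 fell and 3 rose at 24 h, 11 fell and 2 rose at 48 h, and 20 fell and 4 rose in the mean change, beside the shares with the block given above. BCS1L, which inserts the Rieske protein into complex III, averaged 7.78 on Nnm arrays and 8.58 on control arrays at 24 h, and 7.38 on Nnm arrays and 8.46 on control arrays at 48 h. It fell by 0.80 (SE 0.14, adjusted p = 0.00845) and by 1.09 (SE 0.14, adjusted p = 0.00339). SDHAF4 and SDHAF3, assembly factors of complex II, had mean changes of -0.89 (SE 0.19, adjusted p = 0.00612) and -0.69 (SE 0.15, adjusted p = 0.00657). SCO1, a copper chaperone for COX2, had a mean change of -0.38 (SE 0.08, adjusted p = 0.0059). PET117, a complex IV assembly factor, had a mean change of 0.47 (SE 0.08, adjusted p = 0.00262) and rose at 48 h by 0.58. With the block SDHAF3 passed at both times, SDHAF4 and SCO1 also at 48 h and PET117 also at 24 h (adjusted p between 0.0161 and 0.0392).

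Of 6 tested partners that exchange ATP, ADP, phosphate and metabolites, 1 fell and 0 rose at each time, and 3 fell and 0 rose in the mean change. The 2 genes below an unadjusted limma p of 0.05 at each time and the 3 for the mean change stand beside 36.5%, 32.4% and 47.4% of all genes. With the block 2 fell at 48 h and 4 in the mean change, where 13.7% and 24.6% of all genes fell. SLC25A4, an ADP/ATP carrier, fell by 0.92 at 48 h (SE 0.18, adjusted p = 0.013) and differed by -0.25 at 24 h. VDAC1, a channel of the outer membrane, fell by 0.42 at 24 h (SE 0.12, adjusted p = 0.0361), and passed at 48 h with the block (adjusted p = 0.00989). SLC25A3, the phosphate carrier, had a mean change of -0.20 (SE 0.06, adjusted p = 0.0287).

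Among regulators of respiratory genes some fell and some rose. Of 19 tested genes 4 fell and 1 rose at 24 h, 2 fell and 3 rose at 48 h, and 7 fell and 4 rose in the mean change. Over all genes 8.85% fell and 10.6% rose at 24 h, 5.34% and 8.45% at 48 h, and 16.9% and 20.4% in the mean change. With the replicate block 7 fell and 1 rose at 24 h, 6 fell and 4 rose at 48 h, and 9 fell and 4 rose in the mean change. The block called 18.8% of all genes lower and 20% higher at 24 h, 13.7% and 18.5% at 48 h, and 24.6% and 28% in the mean change. The coactivators PPRC1 and PPARGC1A had mean changes of -0.78 (SE 0.11, adjusted p = 0.000888) and -0.85 (SE 0.18, adjusted p = 0.00523), and the mitochondrial DNA helicase gene TWNK had one of -0.82 (SE 0.13, adjusted p = 0.00144). GABPA, the DNA-binding subunit of GABP, averaged 8.06 on Nnm arrays and 7.13 on control arrays at 24 h, and 7.87 on Nnm arrays and 7.08 on control arrays at 48 h. It rose by 0.93 (SE 0.17, adjusted p = 0.00873) and by 0.80 (SE 0.17, adjusted p = 0.0165). Its partner GABPB1 had a mean change of 0.45 (SE 0.10, adjusted p = 0.00546). NRF1 and YY1, named because their letters were searched above, had mean changes of 0.52 (SE 0.11, adjusted p = 0.00634) and 0.27 (SE 0.07, adjusted p = 0.0153). With the block PPARGC1A, TWNK and YY1 also passed at 48 h (adjusted p = 0.0285, 0.0382 and 0.0274). Protein levels and binding were not measured.

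**Figure D5:**
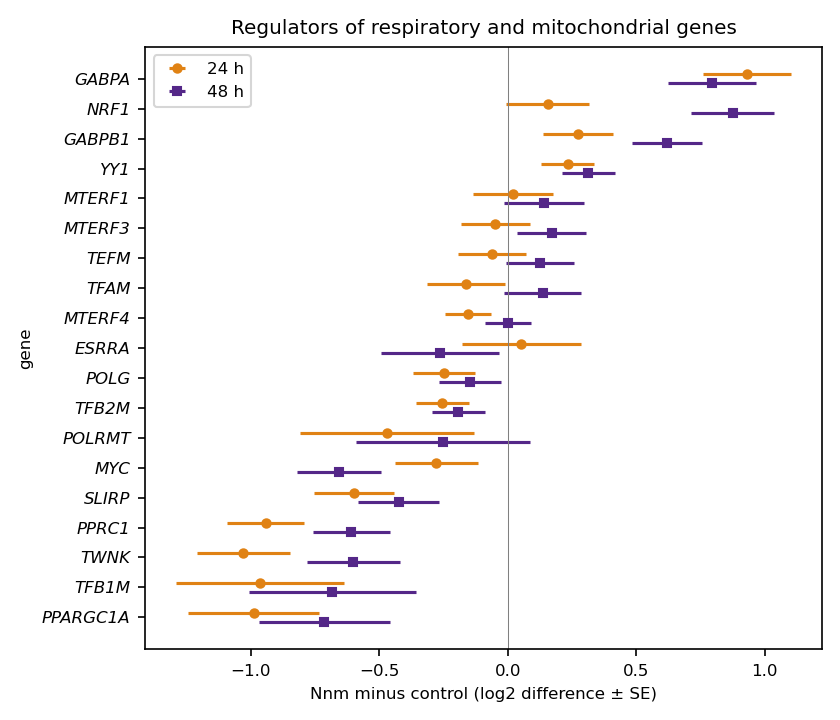
Nnm minus control in log2 units with SE bars for the 19 tested regulators, circles for 24 h and squares for 48 h, ordered by the mean change. GABPA, NRF1, GABPB1 and YY1 lie right of 0 at both times, and PPARGC1A, TFB1M, TWNK and PPRC1 lie farthest to the left.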

How the data were processed

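Labelled cRNA from 12 HK-2 cultures was measured on Affymetrix arrays with 54675 probe sets. The authors deposited log2 values made with GCRMA, per the submitters' processing notes; its version, and which arrays were normalised together, are not given in the sources used here. The range of the values gave the log base. GEO's platform annotation named the probe sets (41097 with 1 gene symbol). The filter asked for a log2 value over 4 on 3 or more arrays, and the probe set of highest mean stood for a gene. Probe sets with several genes named no member. The 10907 genes were fitted with limma 3.58.1 (R 4.3.3; lmFit, then eBayes; 4 groups, no block) over 6 comparisons, with Benjamini-Hochberg adjustment and a threshold of 0.05, after a test on simulated data. P-values measure the spread between cultures labelled as biological replicates.

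Replicate numbers pair the arrays: residuals of same-numbered arrays of one time correlated at 0.34 to 0.512, while the range was 0.318 to 0.696 for all same-numbered arrays and -0.587 to 0.119 for arrays of different numbers. The block is an alternative, given beside each member's call that it changes.

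Per-array values are given for members past the threshold, up to the 6 smallest p of the mean change in each complex, for members of opposite direction, tissue isoforms and c subunit genes; of other pathway lists, up to 5 genes. Members and lists were chosen with earlier results of these data known. Promoter windows came from RefSeq (GRCh38.p14). Python 3.11.15 with matplotlib 3.10.9 drew the plots. Alternatives tried were filters, probe set choice, scaling, limma settings, the groups alone, the block and left-out arrays.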

Additional observations from a re-analysis of the deposited data

Results flagged for a closer look

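COX6A1, the common form of a complex IV subunit, changed in opposite directions at the 2 times in every pair of arrays of the same replicate number. Its Nnm array differed from the control array of its number by 0.04, 0.02 and 0.17 at 24 h and by -0.42, -0.21 and -0.27 at 48 h for replicates 1, 2 and 3. The change at 48 h minus that at 24 h was -0.37 on the log2 scale. The interaction test of this difference did not pass in limma (adjusted p = 0.754).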

How the results depend on the processing

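No value of a named member reversed its direction past the threshold at 24 h, at 48 h or in the mean change under any alternative run. The other members were not checked for this. Of the alternative values of the named members, 1476 kept direction and side of the threshold, 116 passed only under the alternative and 170 no longer passed. The cause of these shifts was not tested. Falls at 24 h numbered 13 with probe sets averaged per gene (9.3% of all genes), 20 with array weights (21.3%) and 5 with the 2 groups alone (3.36%). They numbered 19 with the replicate block (18.8%) and 19 without both Nnm replicate 2 arrays (15.9%), and the block gave 1 rise (20%). At 48 h 20 fell with trend and robust settings (6.02% of all genes), 30 with array weights (14%) and 2 with the 2 groups alone (1.48%). With the block 26 fell (13.7%), and 26 without both Nnm replicate 2 arrays (12.5%). The 1 rise at 48 h became 0 with no filter (2.76% of all genes rose) and with the 2 groups alone (3.24%). It became 2 with probe sets averaged per gene (8.01%). In the mean change array weights gave 34 falls and 2 rises (24.8% and 28.2% of all genes), and probe sets averaged per gene 2 rises (19.3%). Between Nnm 48 h and Nnm 24 h array weights gave 2 falls and 1 rise (4.75% and 4.37% of all genes), and the block 1 rise (1.26%). Between control 48 h and control 24 h the block gave 1 rise (3.87%). With 1 array left out at a time, falls ranged from 1 to 16 at 24 h, from 1 to 19 at 48 h and from 16 to 31 in the mean change, and rises from 0 to 1 at 48 h. Over the same fits the members' median stayed between -0.19 and -0.13 at 24 h, between -0.34 and -0.22 at 48 h and between -0.25 and -0.19 in the mean change. The share of all genes that fell moved as well over the alternatives, from 1.38% to 21.3% at 24 h, from 0.752% to 14% at 48 h and from 7.45% to 24.8% in the mean change. The 9 members below the filter on low signal were not tested.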
